A study of Mus musculus with 20 samples.

Results

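Clones of mouse embryonic stem cells carrying 1 copy of the R595H change of TRIM71 were compared with clones labelled WT. The R595H/+ group held clones C15, C21 and C23, and the WT group held clones C16, C7 and C5. C15 and C16 were each sequenced from both dates in the titles, 20/1 and 5/2, and the other clones from 5/2 alone, which gave 8 of the series' 20 libraries. The dates of C15 and of C16 were averaged, which left 3 clone values on each side, and 9570 of 13283 gene symbols had a mean of at least 3.32 over these 6 clones. All 6 clones share the C57BL/6 strain, the label male, and culture in medium with fetal calf serum, LIF and the 2i inhibitors. The R595H/+ cells have a changed and an unchanged Trim71 allele, and the WT cells have unchanged alleles only. Clones C14, C20 and C24, homozygous for the change (R595H/R595H), enter below only to place the heterozygous clones. The labels do not say how the clones were made or whether they stem from separate editing events, so the p-values measure the spread between these clones.

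TRIM71 (LIN-41) belongs to the TRIM-NHL proteins. It binds RNA hairpins through a propeller-shaped NHL domain and lowers the stability or translation of the bound messengers. In pluripotent cells it is known for repression of messengers such as that of the cell cycle inhibitor CDKN1A and for its place opposite the microRNA let-7, which targets the Trim71 messenger. LIN28A, an RNA-binding protein that blocks let-7 maturation, acts in the same circuit. The arginine that R595H replaces lies in the NHL domain, and the corresponding change in human TRIM71 has been linked to congenital hydrocephalus.

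The codon that the change alters lies in exon 4 of 4 of Trim71, within the coding sequence, at 114513428 to 114513430 on chromosome 9 of GRCm38, minus strand. It is shown with 45 bases on either side, since it is the only labelled genetic difference between the groups. The run below is the GENCODE vM21 reference transcript at chr9:114513383-114513475, 5′ to 3′, and the capitals mark the arginine codon.
Trim71 codon of R595H: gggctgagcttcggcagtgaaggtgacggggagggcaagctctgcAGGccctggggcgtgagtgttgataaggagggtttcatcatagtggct

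All values are on the log2 scale of the deposited table (base 2 was inferred, not stated), and the depth of the libraries is unknown. Library medians lay between 5.15 and 5.19 in the 8 libraries. The mean of 4 Y-linked genes was 6.00 in WT C5, 5.27 in R595H/+ C21, and 5.61 (20/1) and 5.22 (5/2) in R595H/+ C15. It was 4.31 (20/1) and 3.89 (5/2) in WT C16, 4.08 in WT C7 and 4.02 in R595H/+ C23, so that high and low clones occur in both genotypes. Summed over the markers of pluripotent cells, of which 10 of 10 had a row, the level lay between 13.06 and 13.23 in the 6 clones. Of 10 markers of fibroblasts or feeder cells 3 had a row, none passed the minimum mean, and their sum lay between 3.49 and 3.64. Markers of other cell types are given with the gene lists.

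Libraries C16 20/1 and C15 5/2 did not sit closest to the other library of their own clone. The median absolute difference over the 9570 genes between C15 5/2 and C21 was 0.076, against 0.099 between C15 5/2 and C15 20/1. C16 20/1 differed by 0.085 from C5 and from the R595H/+ library C15 5/2, and by 0.098 from C16 5/2. For comparison, the 2 dates of R595H/R595H C14 differed by 0.022. A weighted average of the other 11 clone libraries, with weights of at least 0 that sum to 1, came within a median of 0.023 of C15 5/2 and 0.035 of C16 20/1. The largest weights were 0.448 (C21) and 0.285 (C15 20/1) for the former, and 0.321 (C7) and 0.240 (C16 5/2) for the latter. The same procedure left gaps of 0.071 to 0.089 for the other 6 WT and R595H/+ libraries. What sets these 2 libraries apart was not tested. Results are therefore given with both libraries and with C16 5/2 and C15 20/1 standing alone for their clones, an alternative chosen after seeing the data.

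**Figure D1:**
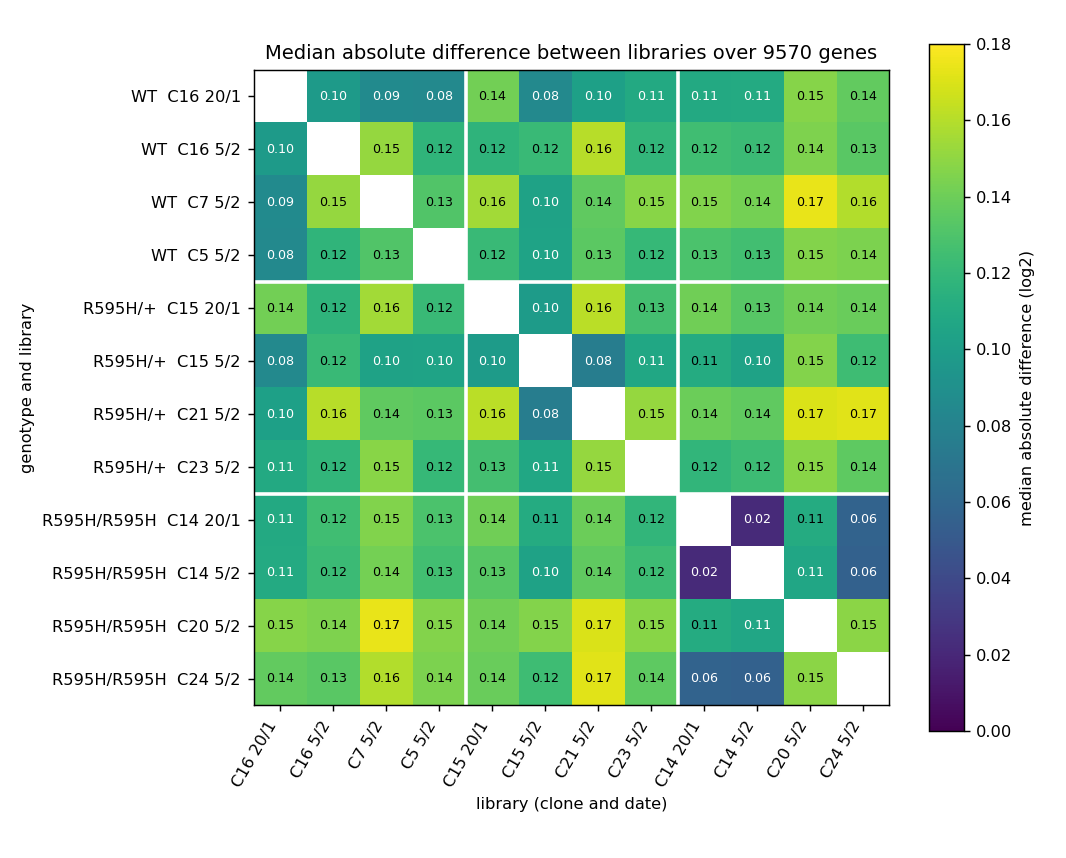
Median absolute difference (log2) over 9570 genes between each pair of the 12 clone libraries, ordered by genotype, with white lines between the genotypes. WT libraries are as far from R595H/+ libraries as from each other, while C14 20/1 and C14 5/2 differ by 0.022 and C15 5/2 lies nearest to C21 (0.076).

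With those 2 libraries set aside, pairs of WT clones differed by 0.118 to 0.152 and pairs of R595H/+ clones by 0.126 to 0.161. Pairs of a WT and an R595H/+ clone differed by 0.117 to 0.160. The heterozygous clones were thus no farther from the WT clones than the clones of one genotype were from each other by this measure.

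The Trim71 transcript itself was measured at 9.52 (20/1) and 9.54 (5/2) in WT C16, 9.49 in C7 and 9.48 in C5. In the R595H/+ libraries it was 9.51 (C15 20/1), 9.59 (C15 5/2), 9.63 (C21) and 9.57 (C23). The clone means of the genotypes did not overlap, but library C15 20/1 lay within the WT range. With 3 clones a side the difference was 0.08 ± 0.07 (SE), and limma gave an adjusted p of 0.831. Each SE of a difference here and below is the moderated SE of limma. It pools the spread over 9 clones and draws it toward that of genes of similar level. The SD of Trim71 between clones was 0.028 in WT and 0.042 in R595H/+. The exact permutation test over clones (two-sided) gave p = 0.1, which is its lower limit for 3 against 3. R595H/R595H clones stood at 10.11 ± 0.10 (SD, n = 3). The change is in the coding sequence, so the level of the transcript does not check the genotype.

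Across the genome no gene passed the test between R595H/+ and WT. In the fit of limma over 9 clones with Benjamini-Hochberg adjustment, 0 of 9570 genes were called (0%), and the smallest adjusted p was 0.390. At an unadjusted p under 0.05 stood 732 genes (7.65%), 379 of them higher (3.96%) and 353 lower (3.69%) in R595H/+. The clones of the genotypes did not overlap for 1194 genes (12.5%), 600 higher (6.27%) and 594 lower (6.21%). With C16 5/2 and C15 20/1 alone for their clones, 0 genes were called, 413 (4.32%) stood at an unadjusted p under 0.05 and 750 (7.84%) did not overlap.

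The intervals say how large a difference could have gone unseen in a single gene, on the scale of the deposited values. They are not adjusted for the number of genes. If the values are regularized log values, differences of low genes are understated and the intervals do not bound them. The median size of the difference was 0.072 and the median half-width of its 95% confidence interval 0.199. The interval lay inside 1.5-fold in either direction for 9486 genes (99.1%) and inside 2-fold for 9563. The SD between clones had a median of 0.097 in WT and 0.106 in R595H/+. With the 2 libraries left out these became 0.116 and 0.127, and 9472 intervals still lay inside 1.5-fold.

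**Figure D2:**
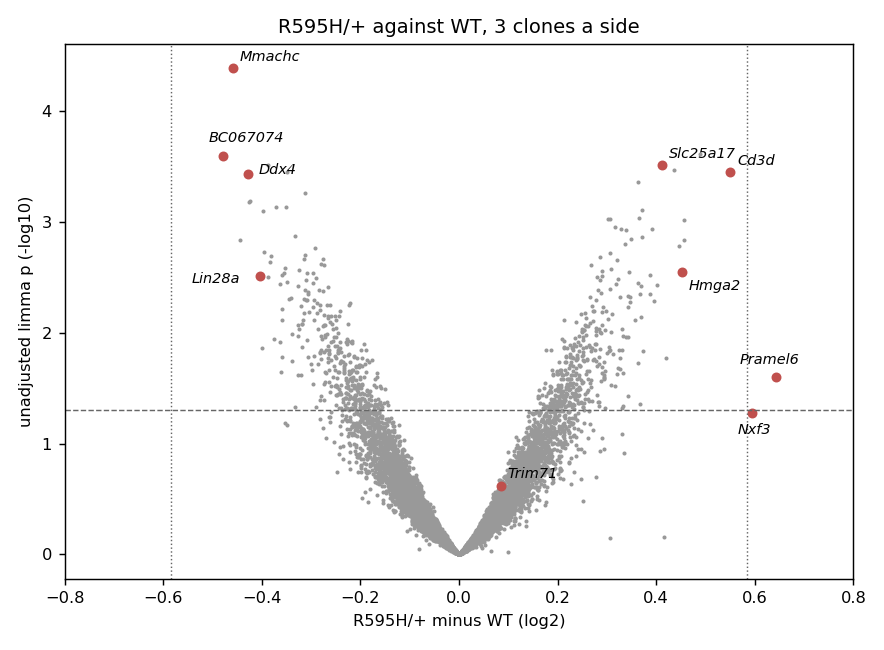
Difference R595H/+ minus WT (log2, x axis) against the unadjusted limma p on a −log10 scale (y axis) for 9570 genes, with the genes discussed in red; the dashed line marks the unadjusted threshold of 0.05 and the dotted lines mark 1.5-fold. Only Pramel6 and Nxf3 lie beyond 1.5-fold, and no gene passes the adjusted threshold of limma.

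Estimates beyond 1.5-fold were seen for only 2 genes, both of low level and named after their values were seen. Pramel6, of the PRAME family, had 3.69 and 3.35 in WT C16, 3.28 in C7 and 3.44 in C5, against 3.37 (C15 20/1), 3.94 (C15 5/2), 4.63 (C21) and 3.89 (C23). Nxf3, an X-linked relative of the mRNA export factor Nxf1, had 3.37, 3.16, 3.36 and 3.11 in the same WT order, against 3.44, 4.05, 4.55 and 3.22. For both genes C21 was the high library, and C15 20/1 lay inside the WT range of Pramel6 and just above that of Nxf3. The differences were 0.64 ± 0.25 and 0.60 ± 0.27 (SE), with limma adjusted p of 0.599 and 0.653. The smallest p of all belonged to Mmachc, which encodes an enzyme of cobalamin (vitamin B12) processing and was likewise named after its value was seen. It stood between 5.44 and 5.52 in the WT libraries and between 4.92 and 5.07 in the R595H/+ libraries, a difference of -0.46 ± 0.08 (SE, limma adjusted p 0.390). For Mmachc all 4 libraries of each genotype stood apart, the 2 doubted ones included.

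The 10 genes of largest difference in each direction were then named, among those at an unadjusted p under 0.05, without overlap between clones and with a mean of 5.64 or more in the higher genotype, leaving aside predicted genes. These 20 were picked for their difference, none was called, and their limma adjusted p lay between 0.392 and 0.593. Their values are therefore a description of these clones.

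Among regulators of chromatin and RNA, Hmga2, an AT-hook chromatin protein and let-7 target on chromosome 10 (120361275 to 120476469), stood highest in R595H/+. It had 5.74 (C16 20/1), 5.47 (C16 5/2), 5.56 (C7) and 5.60 (C5) in WT, against 5.60 (C15 20/1), 6.05 (C15 5/2), 6.37 (C21) and 5.93 (C23). Its difference was 0.45 ± 0.13 (SE), or 1.37-fold, but library C15 20/1 lay inside the WT range. Dnmt3l, the cofactor of the de novo DNA methyltransferases, ranged from 7.37 to 7.80 over the WT libraries and from 7.94 to 8.16 over the R595H/+ libraries, with no overlap even between single libraries.

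In the other direction, Lin28a on chromosome 4 (134003330 to 134018841) was 6.81 and 7.04 in WT C16, 6.79 in C7 and 6.93 in C5, against 6.71 (C15 20/1), 6.39 (C15 5/2), 6.35 (C21) and 6.53 (C23). Its difference of -0.40 ± 0.11 (SE) is 1.32-fold lower. Ddx4, the germ-line RNA helicase also known as Vasa, on chromosome 13 (112598333 to 112652475), lay between 5.74 and 5.87 in WT, at 5.29 in C23, 5.32 in C21, and 5.42 (5/2) and 5.50 (20/1) in C15. Every R595H/+ library was below every WT library for both Lin28a and Ddx4. The histone gene Hist4h4 differed by -0.32 ± 0.09 (SE). Histone H4 genes resemble each other in their coding sequence, and the sources used here do not say how shared reads were counted.

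**Figure D3:**
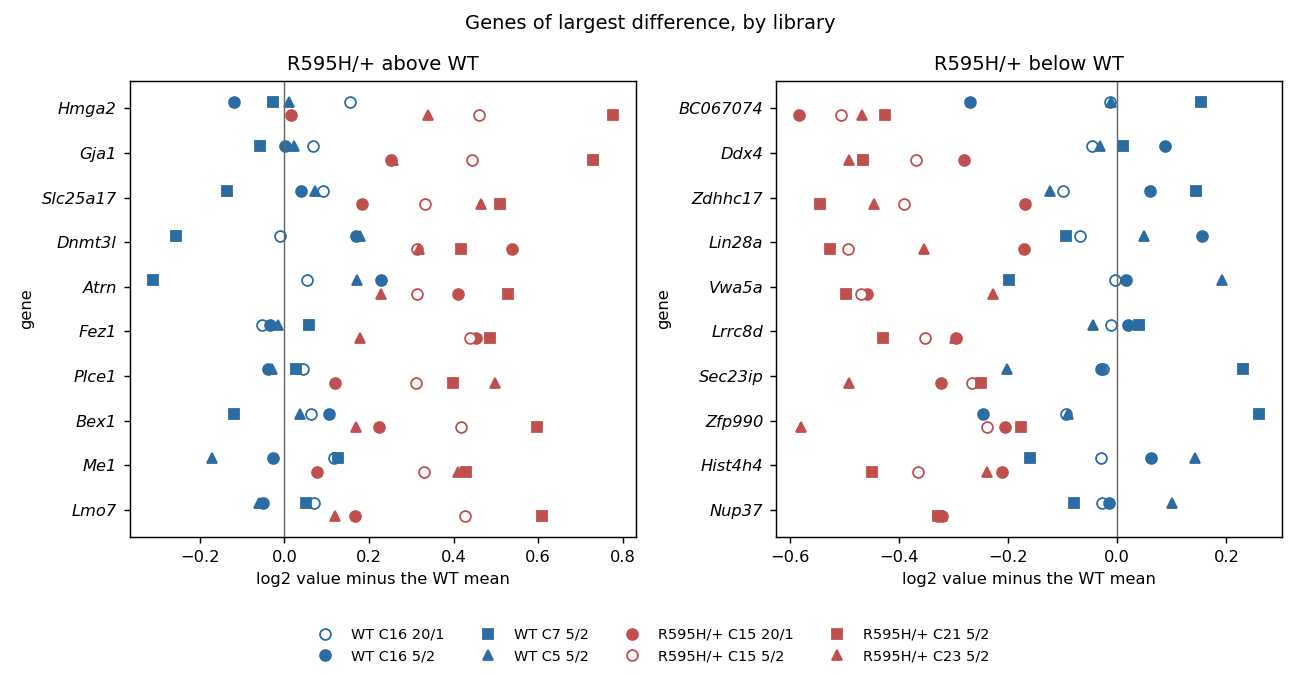
The 10 genes named for the largest difference in each direction, each library as its log2 value minus the WT mean of the gene (x axis). Blue marks are WT and red marks R595H/+ libraries, circles are C16 and C15, squares C7 and C21, triangles C5 and C23, and open circles the libraries C16 20/1 and C15 5/2; C21 (red squares) is the highest R595H/+ library for 8 of the 10 genes on the left.

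Genes of metabolism and of organelles formed another group. Slc25a17, a carrier of the peroxisomal membrane, was 7.04 (C16 20/1), 6.99 (C16 5/2), 6.82 (C7) and 7.02 (C5) in WT, against 7.14 (C15 20/1), 7.29 (C15 5/2), 7.46 (C21) and 7.42 (C23). Every R595H/+ library stood above every WT library, and the difference of 0.41 ± 0.09 (SE) had the smallest p of the genes on the higher side named by the rule. Me1, the cytosolic malic enzyme that supplies NADPH, ranged from 5.71 to 6.01 in WT and from 5.96 to 6.31 in R595H/+, and no longer stood apart when C15 20/1 and C16 5/2 represented their clones. Sec23ip, a protein of endoplasmic reticulum exit sites, differed by -0.35 ± 0.10 (SE). Nup37, a subunit of the nuclear pore, stood between 6.43 and 6.44 in all 4 R595H/+ libraries and between 6.68 and 6.86 in WT.

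Membrane and signalling proteins made up most of the rest. Gja1, which encodes a connexin of gap junctions, lay between 7.30 and 7.42 in the WT libraries, against 7.61 (C15 20/1), 7.80 (C15 5/2), 8.09 (C21) and 7.61 (C23). The difference was 0.45 ± 0.12 (SE) and no library overlapped. Lrrc8d, a subunit of the volume-regulated anion channel, lay between 6.04 and 6.13 in WT and between 5.66 and 5.79 in R595H/+, again with no overlap. The differences of Plce1 (a phospholipase C), Lmo7 (a LIM domain protein of cell junctions) and Atrn (attractin) were 0.37 ± 0.09, 0.34 ± 0.11 and 0.37 ± 0.13 (SE). Those of Fez1, a kinesin adaptor known from axon growth, and of Bex1, a small X-linked protein abundant in brain, were 0.37 ± 0.09 and 0.36 ± 0.10 (SE). The palmitoyltransferase gene Zdhhc17 differed by -0.42 ± 0.10, Vwa5a by -0.40 ± 0.10, the zinc finger gene Zfp990 by -0.33 ± 0.13 and BC067074 by -0.48 ± 0.10 (SE). Without C16 20/1 and C15 5/2 the 20 differences had the same sign, and the clones of Me1 and Zfp990 then overlapped.

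Gene lists are described by counts and medians beside all genes tested, for which the median difference was 0.00. In every list 0 members were called. The lists were tested as single genes only, and in bulk RNA fewer cells of a type cannot be told apart from less RNA per cell. Counts of members at an unadjusted p under 0.05 are to be read against 3.96% (higher) and 3.69% (lower) of all genes. For counts without the doubted libraries, the background was 217 genes higher and 196 lower of 9570, together 4.32%.

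Of the TRIM71 circuit, 0 of 8 messengers reported as TRIM71 targets stood at an unadjusted p under 0.05, with differences from -0.11 (Ago2, an Argonaute protein) to 0.15 (Rbl2, a pocket protein of the RB family). Cdkn1a, the cell cycle inhibitor, differed by -0.09 ± 0.13 (SE), and its library values overlapped, from 5.34 to 5.66 in WT and from 5.09 to 5.51 in R595H/+. Among let-7 targets 3 of 18 members were higher and 3 lower at that p, with a median of 0.02. Hmga2, Ccnd1 (cyclin D1) at 0.24 and Nras at 0.21 were on the higher side, and Lin28a, the phosphatase gene Cdc25a at -0.19 and Hmga1 at -0.22 on the lower side. Without the 2 doubted libraries the counts were 3 higher and 1 lower. The microRNA pathway had 0 of 15 members at that p, with Drosha at -0.20 ± 0.12 (SE) and Tnrc6b at 0.15 ± 0.08 (SE). Of other NHL-domain proteins, Nhlrc3 differed by -0.25 ± 0.09 (SE) and Trim3 by 0.13.

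Pluripotency genes were close in the groups. Of 24 naive pluripotency genes 12 were above and 12 below WT, 0 stood at an unadjusted p under 0.05, and their differences ran from -0.11 to 0.15. Nanog, a core factor of naive cells, lay between 10.24 and 10.44 in WT and between 10.32 and 10.53 in R595H/+. The ranges of Pou5f1, from 8.48 to 9.22 and from 8.61 to 9.11, overlapped as well. Of 15 formative and primed genes 10 stood below WT, 2 of them at that p, with a median of -0.11. Those were Lin28a and Sox4, a SOX factor of early lineages that had a difference of -0.31 ± 0.09 (SE).

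Of 16 germ-line genes tested 12 stood below WT, with a median of -0.10. There were 5 members lower at an unadjusted p under 0.05 against 1 higher. Besides Ddx4 these were Mael, a protein of the piRNA pathway, at -0.28 ± 0.09 (SE), the synaptonemal complex gene Sycp3 at -0.37 ± 0.13 (SE), the receptor gene Kit at -0.17 and the transcription factor gene Prdm1 at -0.21. Mael was between 4.74 and 5.01 in WT and between 4.56 and 4.63 in R595H/+. Piwil2, which encodes a PIWI protein, was on the other side at 0.21. Dazl, an RNA-binding protein of germ cells, varied within genotypes, from 7.64 to 8.37 in WT and from 7.52 to 8.49 in R595H/+. Without the 2 libraries 4 members were lower and 0 higher at that p.

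Neural lists went in both directions. Of 9 neural progenitor genes tested, 2 were higher and 2 lower at an unadjusted p under 0.05. Meis2, a homeobox factor, lay between 3.35 (C5) and 3.54 (C7) in the WT libraries and between 3.67 (C23) and 4.15 (C21) in the R595H/+ libraries. Olig2, a basic helix-loop-helix factor of neural progenitors, ranged from 4.85 to 5.40 in WT and from 5.49 to 5.54 in R595H/+. Id4, an inhibitor of such factors, differed by -0.31 ± 0.10 (SE), and Nfib by -0.20, the latter no longer at that p without the 2 doubted libraries.

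Of 10 neuronal genes 3 were higher and 1 lower at that p. The higher ones were the neurofilament genes Nefl (0.31 ± 0.10) and Nefm (0.29 ± 0.11) and the adhesion gene Ncam1 (0.30 ± 0.10, SE). Stmn2, a regulator of microtubules, differed by -0.23. Without the 2 doubted libraries 2 neuronal genes were higher and 0 lower, and Nefm and Stmn2 no longer stood at that p. Of 20 axon guidance genes 4 were higher and 1 lower, with a median of 0.00. Epha4, an ephrin receptor, differed by 0.33 ± 0.12 (SE), its ligand gene Efna4 by 0.20, Sema6a by 0.18 and Ntn1, which encodes netrin-1, by 0.24, while Robo1 differed by -0.21. The clones of Epha4 and Ntn1 overlapped between genotypes, and without the 2 libraries the axon guidance counts were 3 higher and 0 lower. Of 9 tested genes linked to congenital hydrocephalus 0 stood at that p.

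Of the lists of growth and stress, S phase genes had 0 of 27 and G2/M genes 0 of 25 members at an unadjusted p under 0.05, and cytosolic ribosomal protein genes 0 of 59 with a median of 0.04. Of 25 p53 targets 2 were higher, Tnfrsf10b (0.24) and Perp (0.25 ± 0.09, SE), with the same count without the 2 libraries. Of 14 immediate early and stress genes 12 stood above WT and 2 below, with a median of 0.09. Gadd45a (0.33 ± 0.11, SE) and Ddit3 (0.37 ± 0.17, SE) were higher at that p, with the 2 libraries and without them. That is a larger share than among all genes, but of a list of 14. The clones of Ddit3 overlapped between genotypes, with R595H/+ C21 at 3.88 and WT C5 at 4.03. Of 28 genes of lipid and cholesterol synthesis 2 were lower, the fatty acid synthase gene Fasn at -0.26 ± 0.09 and Mvd, of the mevalonate pathway, at -0.24 ± 0.10 (SE). Without the 2 doubted libraries Fasn alone stood at that p. Fasn lay between 8.33 and 8.38 in WT, and its R595H/+ values were 8.19 (C15 20/1), 8.19 (C15 5/2), 8.27 (C21) and 7.86 (C23). Among 11 writers and erasers of DNA methylation Dnmt3l alone stood at that p. The Wnt (6 members tested), Notch (8), Polycomb and chromatin (25), imprinted (10), hypoxia and glycolysis (22) and BMP, Nodal and TGF-beta (11) lists had 1 member each at that p, and the MAPK (6) and mitochondrially encoded (7) lists 0.

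Few markers of other cell types were among the genes tested, and none was called. Of 9 trophectoderm markers 3 were tested, all below WT with a median of -0.24, and 2 stood at an unadjusted p under 0.05. These were the keratin gene Krt18 at -0.24 ± 0.10 and Tfap2c, an AP-2 factor also known from germ cells, at -0.32 ± 0.13 (SE), with limma adjusted p of 0.623 and 0.593. The summed level of the 5 trophectoderm markers with a row was 6.97, 7.14 and 6.88 in WT C16, C7 and C5, against 6.71, 6.62 and 6.89 in R595H/+ C15, C21 and C23, so that the groups overlapped.

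Of the two-cell-like markers 7 of 9 had a row, and their sum was 5.77, 5.73 and 5.88 in the WT clones in the same order, against 5.69, 5.57 and 5.63 in the R595H/+ clones. Zscan4d, of the Zscan4 cluster that marks this state, differed by -0.35 ± 0.10 (SE), with library C15 20/1 at 4.32 inside the WT range of 4.23 to 4.48. Zscan4c differed by -0.12 ± 0.09 (SE). The Zscan4 genes are near-identical copies, so their values are uncertain. The sum of the 8 endoderm markers with a row was 8.03, 7.80 and 8.07 in WT, against 8.07, 8.09 and 8.18 in R595H/+. Col4a2, a chain of basement membrane collagen, was one of 3 tested and stood at that p, at 0.37 ± 0.12 (SE). The two-cell-like and endoderm sums thus did not overlap between genotypes, the latter by a narrow gap between C5 (8.069) and C15 (8.071). Clones did not overlap for 12.5% of all genes tested. Only 2 of the 7 two-cell-like rows and 3 of the 8 endoderm rows passed the minimum mean. The sums were not computed without the 2 doubted libraries, where the clones of Zscan4d and Col4a2 overlapped. The mesoderm and neural marker sums overlapped. The part of such cells in the results was not tested.

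The place of the heterozygous clones between WT and R595H/R595H was measured by the distance of R595H/+ from the midpoint of those groups. That contrast is orthogonal to the difference between WT and R595H/R595H, so genes can be chosen on the latter. In the same limma fit 328 genes (3.43%) were called between R595H/R595H and WT, and 66 (0.69%) between R595H/R595H and R595H/+. The comparisons share clones and are therefore not set against each other. For R595H/+ against the midpoint 0 genes were called (0%), the smallest adjusted p was 0.156, and 947 genes (9.9%) stood at an unadjusted p under 0.05.

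Over the 328 genes, whose median difference between R595H/R595H and WT was 0.415, R595H/+ lay to the WT side of the midpoint by a median of 0.081, against 0.026 over all genes. The interval excluded the midpoint on the WT side for 71 genes, on the R595H/R595H side for 3, and included it for 254. Over all 9570 genes it was excluded on the WT side for 690 (7.21%) and on the other side for 257 (2.69%), so the WT side held more genes there as well. With C16 5/2 and C15 20/1 alone for their clones, the median was 0.085, with 55 genes on the WT side and 1 on the other. Each R595H/+ library taken alone was on the WT side for most of the 328 genes, by a median of 0.058 in C15 20/1, 0.094 in C15 5/2, 0.086 in C21 and 0.074 in C23. On that side were 63.1%, 76.8%, 70.7% and 71.0% of the genes, against 51.6%, 62.0%, 60.2% and 53.5% of all genes. The 3 genes on the R595H/R595H side, named after their values were seen, were Meis2, the X-linked Egfl6 and the ubiquitin ligase gene Rnf123. Rnf123 lay between 4.30 and 4.43 in WT, between 4.67 and 4.75 in R595H/+, and at 4.71 ± 0.06 (SD, n = 3) in R595H/R595H.

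A set of 30 genes had been singled out earlier on these same R595H/R595H clones, so its direction there is given. The midpoint was excluded on the WT side for 11 of the 30, on the other side for 0, and included for 19. Over all genes the shares on those sides were 7.21% and 2.69%. A nearer comparison is the 328 genes called between R595H/R595H and WT, where the counts were 71 and 3. For the 30 genes the counts were also 11 and 0 when the 2 libraries were left out. Peg10, an imprinted gene of retrotransposon origin, was 4.46 (C15 20/1), 4.89 (C15 5/2), 4.96 (C21) and 5.26 (C23) in R595H/+. WT clones averaged 4.99 ± 0.23 and R595H/R595H clones 5.96 ± 0.13 (SD, n = 3 each), and R595H/+ lay -0.51 from the midpoint, with an interval from -0.77 to -0.24. Ntn1 was 5.88, 5.92, 6.04 and 5.62 in the same order of R595H/+ libraries, against 5.61 ± 0.09 in WT and 6.64 ± 0.12 (SD, n = 3 each) in R595H/R595H. Its distance from the midpoint was -0.27 with an interval from -0.48 to -0.07.

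Similar values were seen for Abcd3, a transporter of the peroxisomal membrane, at -0.27 from the midpoint (-0.40 to -0.13), and for Plxnb2, a semaphorin receptor, at -0.30 (-0.46 to -0.14). Rnf213, a ubiquitin ligase gene that is lower in R595H/R595H, lay 0.33 above the midpoint (0.14 to 0.53). The Nodal antagonist Lefty2, also lower in R595H/R595H, lay 0.48 above it (0.19 to 0.77), with C21 at 7.81 and C23 at 7.03. Trim71 lay -0.22 from its midpoint (-0.35 to -0.09). By contrast, the intervals of Gadd45a (-0.22 to 0.20), Sox4 (-0.22 to 0.12), Lin28a (-0.29 to 0.13) and Ddx4 (-0.34 to 0.01) included the midpoint. Whether these genes differ from Peg10 or Ntn1 in their place between the genotypes was not tested.

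**Figure D4:**
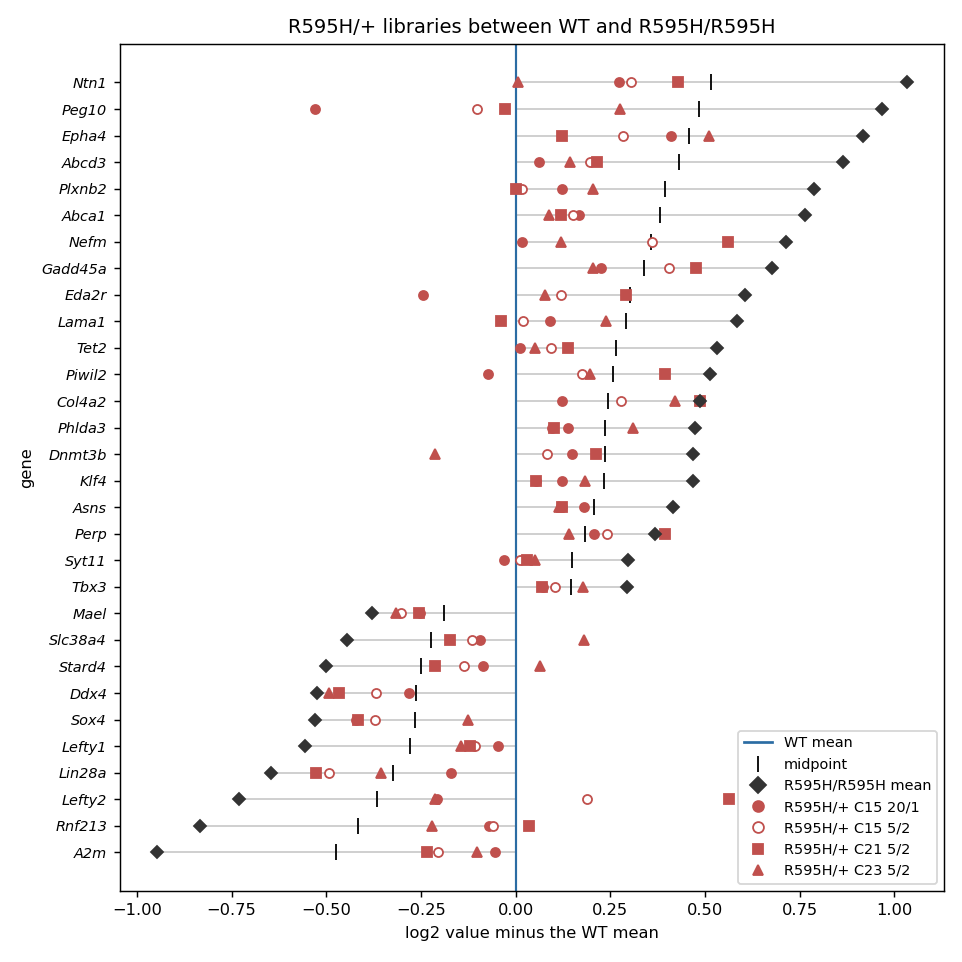
R595H/+ libraries (red) of the 30 genes singled out earlier in R595H/R595H, as log2 value minus the WT mean (x axis); the blue line is the WT mean, black ticks the midpoint and dark diamonds the R595H/R595H mean. For Peg10, Ntn1, Abcd3, Plxnb2 and Rnf213 the 4 R595H/+ libraries lie on the WT side of the midpoint, whereas for Ddx4 all lie beyond it.

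Some genes stood outside both homozygous groups. All 3 R595H/+ clones were above the 6 others for 180 genes and below them for 168, together 3.64% of the genes tested, and none was called against the midpoint. Among the 5 per direction with the smallest p against the midpoint, Hmga2 lay 0.57 above it (0.33 to 0.80) with 5.36 ± 0.17 (SD, n = 3) in R595H/R595H. Crebrf, a regulator of the factor CREB3, was between 6.18 and 6.36 in the WT libraries and between 6.47 and 6.64 in R595H/+. Its R595H/R595H clones stood at 6.13 ± 0.13 (SD, n = 3). Cds2, an enzyme of phospholipid synthesis, Pfdn2, a prefoldin subunit, and Zfp874b lay above the midpoint by 0.29, 0.34 and 0.38.

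On the lower side, Lrrc8d lay -0.42 from the midpoint (-0.57 to -0.26), with 6.22 ± 0.07 (SD, n = 3) in R595H/R595H. Dstn, the actin-severing protein destrin, was between 9.51 and 9.61 in WT, between 9.31 and 9.44 in R595H/+, and at 9.79 ± 0.06 (SD, n = 3) in R595H/R595H. Aldh18a1, of proline synthesis, Zzz3, a chromatin protein, and Stub1, a ubiquitin ligase of the chaperone system, lay -0.31, -0.29 and -0.32 from the midpoint. The clones of Zfp874b, Pfdn2, Zzz3 and Stub1 overlapped between R595H/+ and WT when C16 5/2 and C15 20/1 stood alone.

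Single clones departed from the rest over whole chromosomes, R595H/+ C21 and C23 by the most among the autosomes and the X. Over the 323 X-linked genes tested, C21 stood above the mean of the other 5 clones by a median of 0.18, with 271 genes above it, while the other clones lay between -0.06 and 0.01. C21 also stood 0.11 higher over 779 genes of chromosome 11, where WT clones departed as well, C7 at 0.06 and C5 at -0.07, and R595H/+ C23 stood at -0.08. C23 stood 0.10 higher over 498 genes of chromosome 8, with 370 genes above the others, and the remaining clones lay between -0.04 and 0.00. On the other autosomes the clone medians lay between -0.04 and 0.04. The R595H/+ minus WT median was 0.07 on the X chromosome and 0.04 on chromosome 8, and 31 X-linked genes (9.60%) stood at an unadjusted p under 0.05, 26 of them higher. That share was not particular to the X chromosome, since it was 9.83% on chromosome 9 (28 of 53 higher) and 9.52% on chromosome 13 (12 of 38 higher). Most genes at that p were higher also on chromosome 8 (27 of 36) and on chromosome 11 (41 of 57). With the 2 libraries left out, C21 stood 0.20 higher on the X chromosome and C23 0.09 higher on chromosome 8. Bex1, Nxf3 and Egfl6 are X-linked, and C21 was the highest library for each. What part these chromosomes have in the counts between genotypes was not tested.

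**Figure D5:**
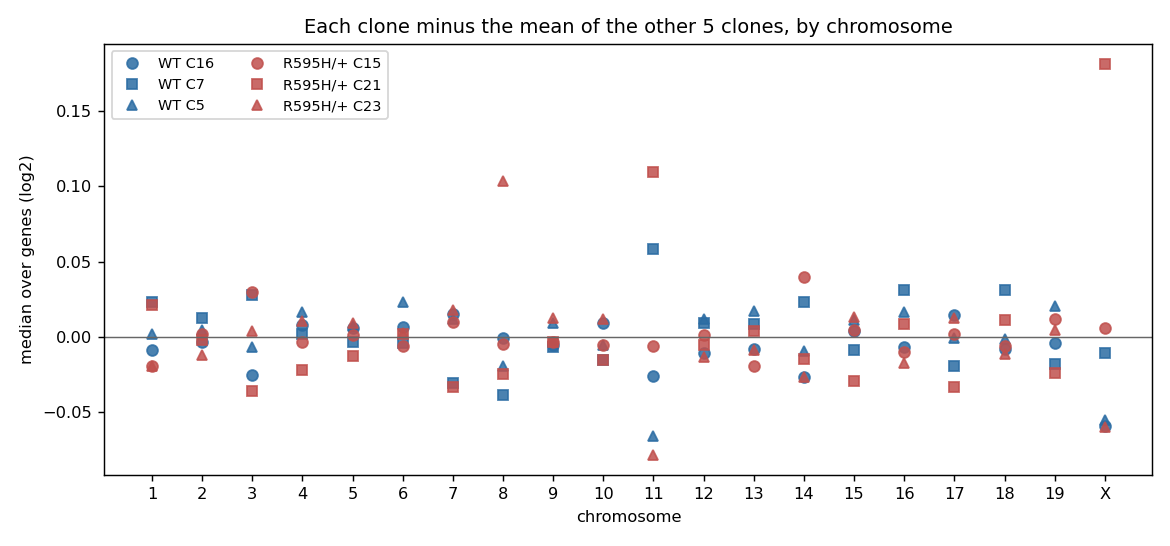
Median over the genes of each autosome and the X chromosome (x axis; the Y chromosome and the mitochondrial genome are left out) of a clone's log2 value minus the mean of the other 5 clones (y axis); blue marks are WT and red marks R595H/+ clones. C21 stands at 0.18 on the X chromosome and 0.11 on chromosome 11, C23 at 0.10 on chromosome 8, and the other values plotted lie between -0.08 and 0.06.

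The 2 dates of a clone were compared within C16, C15 and C14, paired by clone. In that limma fit 0 genes were called (0%), and 1 of 9570 (0.0104%) stood at an unadjusted p under 0.05. That share is far below the threshold itself, and C14 hardly differed between its dates while C16 and C15 did, so the absence of calls says nothing about the dates. The median absolute difference between the dates was 0.098 in C16 and 0.099 in C15, between single libraries, whereas the median of 0.072 between the genotypes is between means of 3 clones.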

How the data were processed

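Bulk poly(A) RNA of 20 libraries was sequenced, per the labels' protocols. The table deposited by the authors gives one score per gene and library, which was treated as a log2 value that they had scaled between libraries. Its form resembles regularized log values, which would understate differences of low genes. The submitters' processing notes name CASAVA 1.8, STAR and DESeq2. Build, counting and transformation were steps not given in the sources used here. Dates were taken from the titles, since the labels' day field differs from them. Values were fitted with limma 3.58.1 (lmFit, eBayes with trend and robust) in R 4.3.3 over 9 clones, with Benjamini-Hochberg adjustment over 9570 genes and calls at an adjusted p under 0.05. The fit was tested on simulated data. Named were Trim71, the genes of largest difference (10 per direction), the 2 members of smallest p in each list, the set singled out earlier in R595H/R595H, 5 genes per direction against the midpoint, and the 5 of largest gap within a genotype; part of them are printed. The members, gene lists and rules were chosen with earlier results of these data known. In GENCODE vM21 (GRCm38) 13156 symbols matched 1 gene, 24 several and 103 none.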

Additional observations from a re-analysis of the deposited data

How the results depend on the processing

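Under 19 alternatives (date 5/2 only, the 6 clones alone, libraries with a date term, filters, scalings, eBayes settings, a Y-linked covariate, each clone left out, and the 2 doubted libraries left out) limma called 0 genes between R595H/+ and WT, and 0 against the midpoint wherever that could be fitted. The count at an unadjusted p under 0.05 was 1109 without a filter (13283 genes tested), 483 with a minimum mean of 5 (fewer genes tested), 444 with equal library totals (the cause was not tested) and 413 without C16 20/1 and C15 5/2. Leaving out one clone gave 510 (without R595H/R595H C14) to 890 (without R595H/R595H C20). The fit of the 6 clones alone gave 635. Clones did not overlap for 750 genes without those libraries, and for 1194 to 2410 with one clone left out, where fewer clones overlap less often by construction. Intervals inside 1.5-fold numbered 9362 to 9513 with one clone left out, and Trim71 differed by 0.06 to 0.10. Neither scaling moved the median of all genes by more than 0.1. Of 2086 values of single named genes 24 changed sign, all of genes that were not called. With one clone left out their ranges were -0.48 to 1.02 for Lars2, -0.21 to 0.30 for Ddit4, -0.085 to 1.38 for Ddx3y, -0.080 to 1.07 for Eif2s3y, -0.28 to 0.012 for Spred2, -0.064 to 0.34 for Col4a1, -0.024 to 0.092 for mt-Co1, -0.13 to 0.025 for Esrrb, -0.28 to 0.28 for Usp26 and -0.30 to 0.21 for Gys1. Lars2, at 0.10 as reported, became -0.43 with date 5/2 only, -0.85 after quantile normalization and -0.13 without the 2 libraries. Ddit4 became -0.00083 with date 5/2 only, and Usp26 became -0.023 without the 2 libraries. No paired analysis was possible because WT and R595H/+ share no clone, and only C16 and C15 have both title dates; the fit with a date term gave 717 genes at an unadjusted p under 0.05. The unknown depth limits what can be said of low genes, and with 3 clones a side the intervals of 84 genes reach past 1.5-fold.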

Other observations

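The genes with the largest gap between clones of one genotype were not those that separated the genotypes. Lars2, which encodes the mitochondrial leucyl-tRNA synthetase, was 14.60 (20/1) and 16.88 (5/2) in WT C16, 14.48 in C7 and 14.21 in C5. In R595H/+ it was 16.05 (C15 20/1), 15.13 (C15 5/2), 13.06 (C21) and 16.08 (C23), so that the groups overlapped. It made up between 0.498% and 6.73% of the back-transformed sum of these libraries. In C16 its share was 1.45% on 20/1 and 6.73% on 5/2. Which reads make up this value was not tested, and the sources used here do not say how reads were counted. The value is therefore not read as the level of the Lars2 messenger.

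Other genes set C21 apart from C23. The X-linked Usp26, a deubiquitinase gene, was 6.47 in C21, 5.35 in C23, and 5.21 (20/1) and 5.95 (5/2) in C15, against 5.66 to 5.94 in the WT libraries. Ddit4, an inhibitor of mTOR signalling induced by stress, was 6.48 in C21 and 7.50 in C23, against 6.76 to 7.14 in WT. Gys1, the glycogen synthase of muscle and most other tissues, was 5.76 in C21 and 6.78 in C23, against 6.27 to 6.81 in WT. The Y-linked RNA helicase gene Ddx3y was 7.86 in WT C5, 6.96 in R595H/+ C21, and 7.53 and 6.85 in C15, and between 4.75 and 5.28 in the libraries of WT C16, WT C7 and R595H/+ C23.

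Cd3d, which encodes a chain of the T cell receptor complex and was named after its values were seen, ranged from 3.99 to 4.34 in WT and was 4.24 (C15 20/1), 4.69 (C15 5/2), 4.94 (C21) and 4.71 (C23) in R595H/+. The neighbouring Cd3g on chromosome 9 ranged from 4.25 to 4.49 in WT and was 4.46, 4.83, 5.06 and 4.73 in the same order. For both genes library C15 20/1 lay within the WT range. Reads of overlapping or antisense genes cannot be told apart where strand was not kept, and whether it was is not given in the sources used here.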
